A study of Mus musculus with 7 samples.

Results

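Genes of the acute phase response (10 of 22365 genes with a protein-coding transcript) were examined for accessible chromatin in unstimulated mouse liver: Saa1, Saa2, Saa3, Saa4, Crp, Apcs, Hp, Orm1, Orm2 and Itih4. The measurement was the hotspot, a stretch of genome in which nuclease cuts were called as enriched, and all hotspots that overlapped a gene body or the 20 kb on either side of it were taken. Overlapping windows were joined, which left 6 windows of 326189 bp in all: the Saa cluster, the Orm cluster, Hp, Itih4, Crp and Apcs. Hotspots of different nucleases that shared at least 1 bp were merged into regions, and 62 of the 94491 regions of the genome lay in these windows. They held 50 of 60910 Benzonase hotspots, 44 of 57675 Cyanase hotspots and 51 of 72286 DNase I hotspots. Of the DNase I hotspots, 49 reached into a window themselves, and 2 lay beyond the far edge of the Itih4 window within a region that reached into it.

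Livers came from 8-week-old male C57BL/6 mice, for which the labels name no treatment. Benzonase and Cyanase, both nonspecific endonucleases that tolerate detergent and reducing agent, were applied to pulverized frozen tissue at 0.25, 1 and 4 U, with 1 sample per dose and 3 samples per nuclease. DNase I was applied to nuclei of fresh tissue, with 1 sample in the labels, and its list describes itself as a pool of more than 1 library. The nuclease and the state of the tissue therefore cannot be told apart. Each nuclease has 1 pooled list of positions without tag counts, so depth at a hotspot is unknown, there is no spread between replicates and no test between nucleases was possible. Intervals given for shares are 95% Wilson intervals and cover counting error only.

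The acute phase response is the change in plasma proteins that the liver makes after infection or injury. Interleukin 6 and interleukin 1 reach the hepatocyte, activate STAT3 and NF-kB, and act with C/EBP factors on the promoters of genes that encode secreted proteins. Serum amyloid A proteins travel with high-density lipoprotein, pentraxins bind bacterial and dead-cell surfaces, haptoglobin captures free haemoglobin, and the orosomucoids carry small molecules. In mice serum amyloid P, the product of Apcs, is the pentraxin that rises most in inflammation, whereas Crp rises little.

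Start sites of all 6 hepatocyte marker genes (Alb, Apoa1, Apob, Tat, Cyp3a11 and Cyp2e1) lay inside hotspots of all 3 nucleases. Over all genes with a protein-coding transcript, 57.4% had a start site in a Benzonase hotspot, 55.7% in a Cyanase hotspot and 47.4% in a DNase I hotspot. Of 5 Kupffer cell markers, 0 were in Benzonase hotspots, 1 was in a Cyanase hotspot and 4 were in DNase I hotspots. Of 4 sinusoidal endothelial markers the counts were 2, 2 and 0, and of 3 stellate cell markers they were 2, 3 and 0. The endothelial marker Kdr had a DNase I hotspot 3 bp from its start site, so the endothelial count of 0 includes a near miss. Bile duct markers gave 1, 0 and 0 of 3, and markers of other tissues 0, 1 and 0 of 6. The study describes no separation by cell type, either of the tissue powder (Benzonase and Cyanase) or of the nuclei (DNase I). Fewer cells of a type and fewer cuts per cell therefore cannot be told apart.

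The promoters of the Saa genes are given first, because Saa1 and Saa2 are similar copies whose start sites differed in every list. Each sequence is the 200 bases that end just before the annotated start site on mm9 (NCBIM37), 5′ to 3′ on the strand of the gene. Capitals mark matches to the C/EBP motif TTGCNNAA, the STAT motif TTCNNNGAA or the TATA box TATAAA on either strand. The Saa2 start site was outside all hotspots, the Saa1 start site was inside hotspots of all 3 nucleases, and Saa3, whose promoter is far less similar, was also outside.
Saa1 promoter, chr7:53998351-53998550, minus strand: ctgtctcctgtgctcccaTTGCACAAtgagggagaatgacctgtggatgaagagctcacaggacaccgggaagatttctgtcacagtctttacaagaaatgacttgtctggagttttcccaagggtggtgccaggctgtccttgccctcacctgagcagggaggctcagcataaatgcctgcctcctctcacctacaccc
Saa2 promoter, chr7:54007003-54007202, plus strand: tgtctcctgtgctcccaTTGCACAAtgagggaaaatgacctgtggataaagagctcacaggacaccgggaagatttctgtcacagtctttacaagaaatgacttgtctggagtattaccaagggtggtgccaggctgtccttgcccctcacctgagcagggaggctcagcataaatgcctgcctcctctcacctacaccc
Saa3 promoter, chr7:53971047-53971246, minus strand: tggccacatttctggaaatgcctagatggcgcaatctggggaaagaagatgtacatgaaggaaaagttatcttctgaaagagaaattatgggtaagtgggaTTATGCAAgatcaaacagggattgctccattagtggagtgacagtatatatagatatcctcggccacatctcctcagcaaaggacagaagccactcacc

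The next set holds both Orm promoters, which carry the same palindromic C/EBP match, the Itih4 promoter, with a STAT match close to the start site, and the central 150 bases of the region from -6253 to -5267 bp of Orm1, which holds both motifs. All 4 lay inside hotspots of all 3 nucleases.
Orm1 promoter, chr4:63005394-63005593, plus strand: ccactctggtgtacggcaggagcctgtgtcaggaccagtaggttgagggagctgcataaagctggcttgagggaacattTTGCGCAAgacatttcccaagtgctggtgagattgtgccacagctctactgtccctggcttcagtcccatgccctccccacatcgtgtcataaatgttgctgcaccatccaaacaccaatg
Orm2 promoter, chr4:63023283-63023482, plus strand: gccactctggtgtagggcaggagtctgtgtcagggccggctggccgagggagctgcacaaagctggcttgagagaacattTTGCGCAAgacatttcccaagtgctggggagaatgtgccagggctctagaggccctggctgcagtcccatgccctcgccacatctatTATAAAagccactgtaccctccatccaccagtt
Itih4 promoter, chr14:31699462-31699661, plus strand: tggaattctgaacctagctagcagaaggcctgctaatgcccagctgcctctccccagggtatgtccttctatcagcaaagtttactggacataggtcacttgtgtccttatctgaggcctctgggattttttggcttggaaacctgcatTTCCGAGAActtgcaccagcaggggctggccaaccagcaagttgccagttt
Centre of the region upstream of Orm1, chr4:62999759-62999908, plus strand: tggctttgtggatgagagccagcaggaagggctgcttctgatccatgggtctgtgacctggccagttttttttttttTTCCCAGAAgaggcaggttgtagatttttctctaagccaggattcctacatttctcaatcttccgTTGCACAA

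The first question was whether the start sites of acute phase genes were accessible without stimulation, and to which nuclease. Start sites of 8 of the 10 genes lay inside a Benzonase hotspot, against 57.4% of all genes. The same 8 lay inside Cyanase hotspots, against 55.7%, and inside DNase I hotspots, against 47.4%. All 3 nucleases therefore gave a hotspot at Saa1, Saa4, Crp, Apcs, Hp, Orm1, Orm2 and Itih4, beside 46.1% of genes with a hotspot of all 3. Saa2 and Saa3 had none, as had 40.9% of genes. None of these 10 genes had its start site in a hotspot of some nucleases and not of others.

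**Figure D1:**
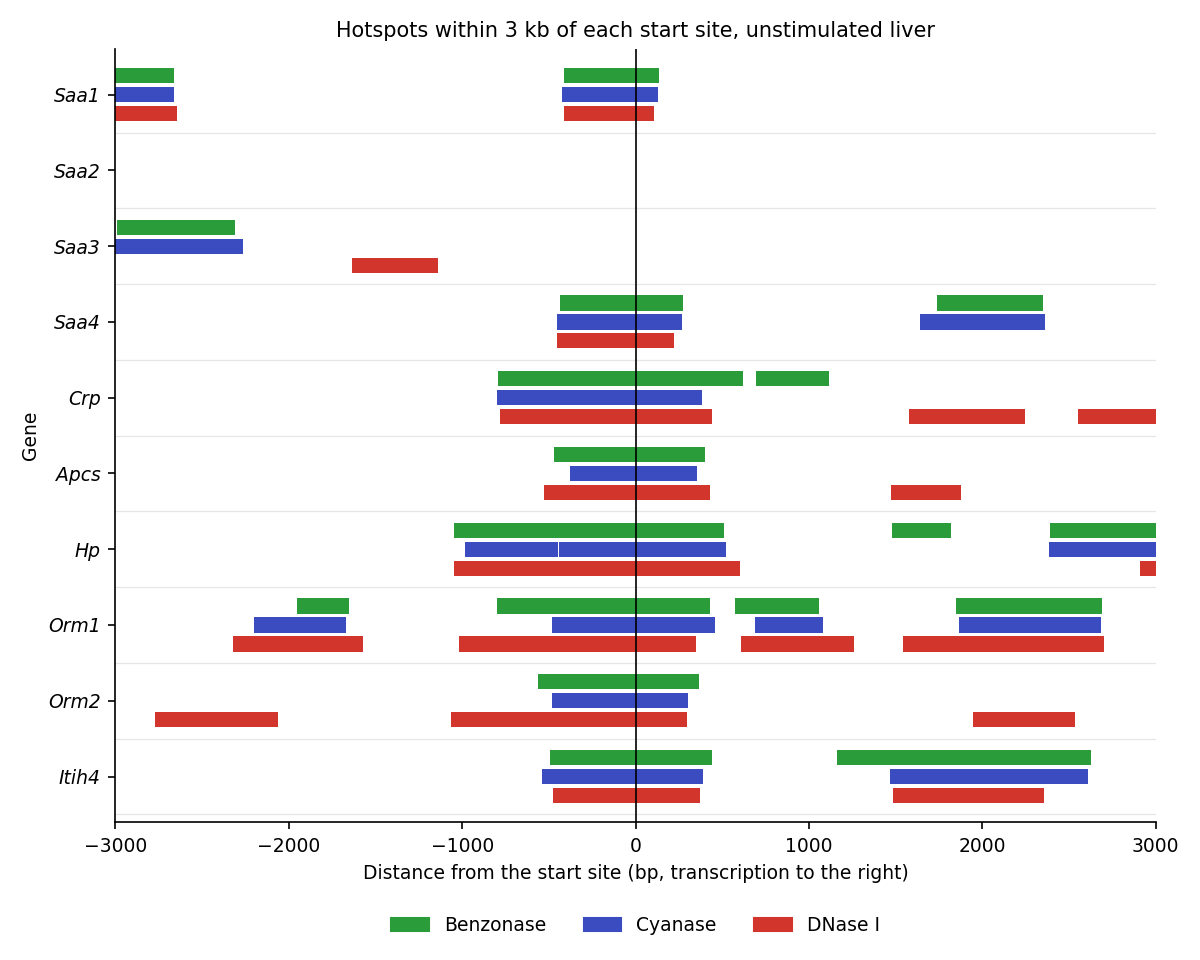
Hotspots of Benzonase, Cyanase and DNase I (bars) within 3 kb of the start site of each of the 10 genes, against distance from the start site in bp with transcription to the right. Bars of all 3 nucleases cross the start site at 8 genes, and Saa2 and Saa3 have no bar there.

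The Saa genes lie within one cluster on chromosome 7, in which Saa3, Saa4 and Saa1 are on the minus strand and Saa2 is on the plus strand, divergent from Saa1. Saa1 (ENSMUSG00000074115.3, 53995871 to 53998350) encodes an amyloid A protein of the acute response. Its start site hotspot ran from -412 to 132 bp relative to the start site with Benzonase, a width of 545 bp. With Cyanase it ran from -427 to 127 bp (555 bp), and with DNase I from -413 to 103 bp (517 bp). The upstream bounds thus lay within 15 bp of each other and the downstream bounds within 29 bp. These were narrow hotspots, since only 32.1%, 33.7% and 21.4% of the Benzonase, Cyanase and DNase I lists were narrower. Their downstream bounds lay in the Saa1 gene body, where 53.5% of words of 32 bases occurred once in the genome. In the 300 bases before the start site the share was 77.7%. Whether alignment limited the widths or set the downstream bounds was not tested.

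Saa2 (ENSMUSG00000057465.4, 54007203 to 54009684) encodes the second acute phase amyloid A protein of the cluster. Its nearest hotspot ended 4272 bp before the start site with Benzonase, 4870 bp before it with Cyanase and 4108 bp before it with DNase I. No hotspot of any nuclease touched its gene body. The gene sat in the longest stretch without a hotspot in the cluster, 19704 bp (54003096 to 54022799), which reached into introns of Hps5. The Saa2 window nevertheless was covered over 10.5% of its bases by Benzonase, 9.0% by Cyanase and 12.1% by DNase I hotspots, all on the Saa1 side or within Hps5.

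Tags had to align to the genome, so the similarity of Saa1 and Saa2 bears on what could be counted at each. Their promoters (300 bases before the start site) were identical at 276 of 304 aligned positions, or 90.8%, and their gene bodies at 96.5%. Of the 269 words of 32 bases in each promoter, 209 (77.7%) occurred once in the genome at Saa1 and also 209 at Saa2. Over the stretch of the Saa1 hotspots, from -427 to 132 bp, the copies were less alike, with 475 of 588 aligned positions (80.8%) identical. Of the words in that stretch 63.4% occurred once at Saa1, and 70.9% did so over the same stretch at Saa2. In the gene bodies the shares were 53.5% for Saa1 and 54.5% for Saa2. The study gives the depth of its Benzonase and Cyanase libraries in uniquely aligning tags, and the read length is not given in the sources used here. The part of alignment in the difference between the copies was not tested.

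Saa3 (ENSMUSG00000040026.7, 53967368 to 53971046) is the amyloid A gene best known from macrophages and fat tissue. Its start site lay outside all hotspots, and no hotspot touched the gene body. The nearest hotspot upstream was 1141 bp away with DNase I, where a 496 bp hotspot (-1636 to -1141 bp) had no Benzonase or Cyanase partner. Farther out, Cyanase gave a hotspot of 2496 bp from -4760 to -2265 bp, wider than 99.2% of its list. Benzonase divided the same region into hotspots of 1722 and 682 bp that lay side by side, and DNase I covered 927 bp of it. Among the Saa genes, cover differed most between nucleases at Saa3. Benzonase covered 13.5% of the Saa3 window and Cyanase 14.4%, whereas DNase I covered 5.54%. Of the 5 Kupffer cell markers, 0 had start sites in Benzonase hotspots, 1 in a Cyanase hotspot and 4 in DNase I hotspots. The marker count was thus highest with DNase I, whereas cover of the Saa3 window was lowest with it. Any part of Kupffer cells in the Saa3 values was not tested.

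Saa4 (ENSMUSG00000040017.7, 53983387 to 53987913) encodes the constitutive amyloid A of plasma lipoproteins. Its start site hotspots measured 709 bp with Benzonase (-433 to 275 bp), 719 bp with Cyanase (-453 to 265 bp) and 674 bp with DNase I (-452 to 221 bp). The upstream bounds lay within 20 bp of each other. Intron 2 held a region of Benzonase (615 bp) and Cyanase (723 bp) with no DNase I hotspot. The Saa4 window was covered over 21.7% by Benzonase, 21.1% by Cyanase and 14.8% by DNase I.

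Across the Saa cluster, 14 regions were found, of which 7 had all 3 nucleases, 4 had Benzonase and Cyanase, 1 had Benzonase and DNase I, and 2 had DNase I alone. Of the covered bases, 40.3% had no DNase I hotspot, compared with 28.4% of covered bases in the genome. Between Saa1 and Saa2 lay a region of all 3 nucleases with closely matching bounds, 1356 bp with Benzonase, 1320 bp with Cyanase and 1339 bp with DNase I, from -4019 to -2643 bp of Saa1. On the other side, regions of all 3 nucleases lay beyond the 3′ end of Saa1.

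**Figure D2:**
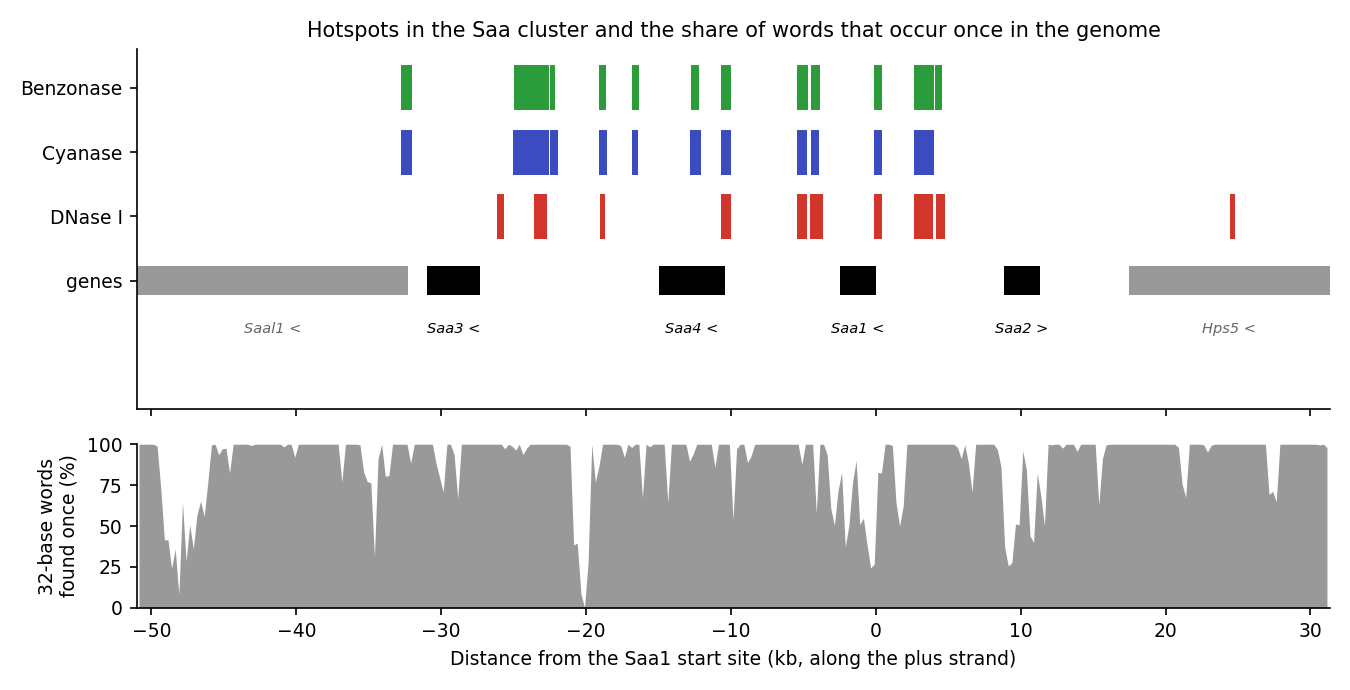
Top, hotspots of each nuclease (coloured bars) and gene bodies (black, Saa1 to Saa4; grey, neighbours; > and < give the strand) across the Saa cluster, against distance from the Saa1 start site in kb. Bottom, percent of 32-base words found once in the genome, in bins of 250 bp. Hotspots flank Saa1 and Saa4, none touches Saa2 or Saa3, and unique words fall at both Saa1 and Saa2.

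Crp and Apcs encode the pentraxins C-reactive protein and serum amyloid P and lie on chromosome 1. Crp (ENSMUSG00000037942.3, plus strand, 174628187 to 174630097) had wide start site hotspots of 1412 bp with Benzonase (-793 to 618 bp), 1184 bp with Cyanase (-801 to 382 bp) and 1218 bp with DNase I (-780 to 437 bp). The upstream bounds lay within 21 bp of each other, while the downstream bounds, in exon 2, differed by 236 bp. DNase I had more hotspots in the Crp window than the others, 7 against 5 with Benzonase and 4 with Cyanase. The DNase I hotspots covered 12.9% of the window, Benzonase 8.70% and Cyanase 6.50%. DNase I alone gave a 668 bp hotspot across the end of exon 2 and a 461 bp hotspot beyond the gene, and 32.9% of covered bases in the window were DNase I only, against 26.5% in the genome. A region from 8071 to 8831 bp after the start site had hotspots of all 3.

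Apcs (ENSMUSG00000026542.5, minus strand, 174824093 to 174825185) had the lowest cover of the 10 windows with every nuclease. It held 3 regions, against 8 at Crp: the start site, a region from -8779 to -8098 bp, and a DNase I hotspot of 405 bp after the gene. The start site hotspots measured 868 bp with Benzonase (-470 to 397 bp), 731 bp with Cyanase (-378 to 352 bp) and 959 bp with DNase I (-530 to 428 bp). The distal region was nearly equal in width, with 677, 654 and 660 bp. Hotspots covered 3.76%, 3.37% and 4.93% of the Apcs window with Benzonase, Cyanase and DNase I, and 55.2%, 54.9% and 67.1% of genes had a lower cover. The 2 pentraxin genes thus shared an accessible start site but differed in what lay around it.

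Hp (ENSMUSG00000031722.9, chromosome 8, minus strand, 112099030 to 112103072) encodes haptoglobin. It had the highest cover of the 10 genes with Benzonase (24%) and Cyanase (22.4%), and 18.6% with DNase I. Of all genes, 99.6%, 99.5% and 99.2% had a lower cover. The start site hotspot measured 1559 bp with Benzonase (-1049 to 509 bp) and 1650 bp with DNase I (-1046 to 603 bp), the latter wider than 98.0% of its list. Cyanase divided this stretch into a hotspot of 964 bp over the start site (-440 to 523 bp) and one of 536 bp from -984 to -449 bp, so its outermost bound, at -984 bp, lay close to those of the other nucleases.

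Upstream of Hp, 3 neighbouring regions of all 3 nucleases lay between -8603 and -4868 bp, with Benzonase hotspots of 1404, 840 and 1069 bp. The first and second regions abutted, at -6300 and -6301 bp, so counting them apart rests on where hotspots were split. The first region had nearly the same width with every nuclease, 1366 bp with Cyanase and 1407 bp with DNase I. At and beyond the 3′ end the nucleases differed. A region from 4180 to 6890 bp after the start site, over exon 4 of the neighbour Txnl4b, measured 2423 bp with Benzonase and 2283 bp with Cyanase but 945 bp with DNase I. In the last part of Hp, the Benzonase hotspot measured 1704 bp and reached from intron 3 to just past the end of the gene, the Cyanase hotspot measured 1214 bp, and the DNase I hotspot measured 566 bp at intron 4 and exon 5. Only 4.47% of covered bases of the Hp window were DNase I only, the lowest share of the 6 windows.

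Orm1 and Orm2 encode orosomucoids (alpha-1-acid glycoproteins) and lie on chromosome 4 with a further copy, Orm3, between them. At Orm1 (ENSMUSG00000039196.2, plus strand, 63005594 to 63009197) the start site hotspots measured 1225 bp with Benzonase (-797 to 427 bp), 942 bp with Cyanase (-483 to 458 bp) and 1367 bp with DNase I (-1019 to 347 bp). At Orm2 (ENSMUSG00000061540.3, plus strand, 63023483 to 63026912) they measured 928 bp (-563 to 364 bp), 784 bp (-482 to 301 bp) and 1361 bp (-1063 to 297 bp). In both copies the order of widths was DNase I, Benzonase, Cyanase, and the bounds differed most on the upstream side, where they spread over 536 bp at Orm1 and 581 bp at Orm2. The Cyanase bound lay at nearly the same place in both, at -483 and -482 bp. At Orm3 the order differed, with 835 bp, 747 bp and 552 bp and upstream bounds of -483, -482 and -372 bp.

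The gene bodies of the Orm copies also differed. Orm1 held hotspots of all 3 nucleases at exons 2 and 3 (487 bp with Benzonase, 394 bp with Cyanase and 649 bp with DNase I) and at intron 5 (843, 820 and 1159 bp). Orm2 held beyond its start site a DNase I hotspot of 593 bp in intron 5 and no other. The promoters of Orm1 and Orm2 were 83.7% identical, and 93.3% and 98.5% of their words occurred once, against 77.7% at Saa1. In the gene bodies 84.9% and 81.2% of words occurred once. Cover of the windows was 17.5%, 15.6% and 20.3% at Orm1 and 16.2%, 13.3% and 18.6% at Orm2, so DNase I covered the most at both.

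Itih4 (ENSMUSG00000021922.9, chromosome 14, plus strand, 31699662 to 31715167) encodes a heavy chain of the inter-alpha-trypsin inhibitor family. The start site hotspots were nearly equal, 931 bp with Benzonase (-493 to 437 bp), 927 bp with Cyanase (-539 to 387 bp) and 847 bp with DNase I (-474 to 372 bp). A region over exon 2 had hotspots of 1470 bp with Benzonase, 1139 bp with Cyanase and 875 bp with DNase I. The rest of this long gene was nearly bare, with a DNase I hotspot of 270 bp at exon 12. At the far end of the window a region at the start site of Itih3, a gene of the same family, had hotspots of 2244 bp with Benzonase and 2180 bp with Cyanase, whereas the DNase I hotspots of 597 and 798 bp there lay beyond the window edge. By the window rule itself this region therefore had Benzonase and Cyanase hotspots only.

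**Figure D3:**
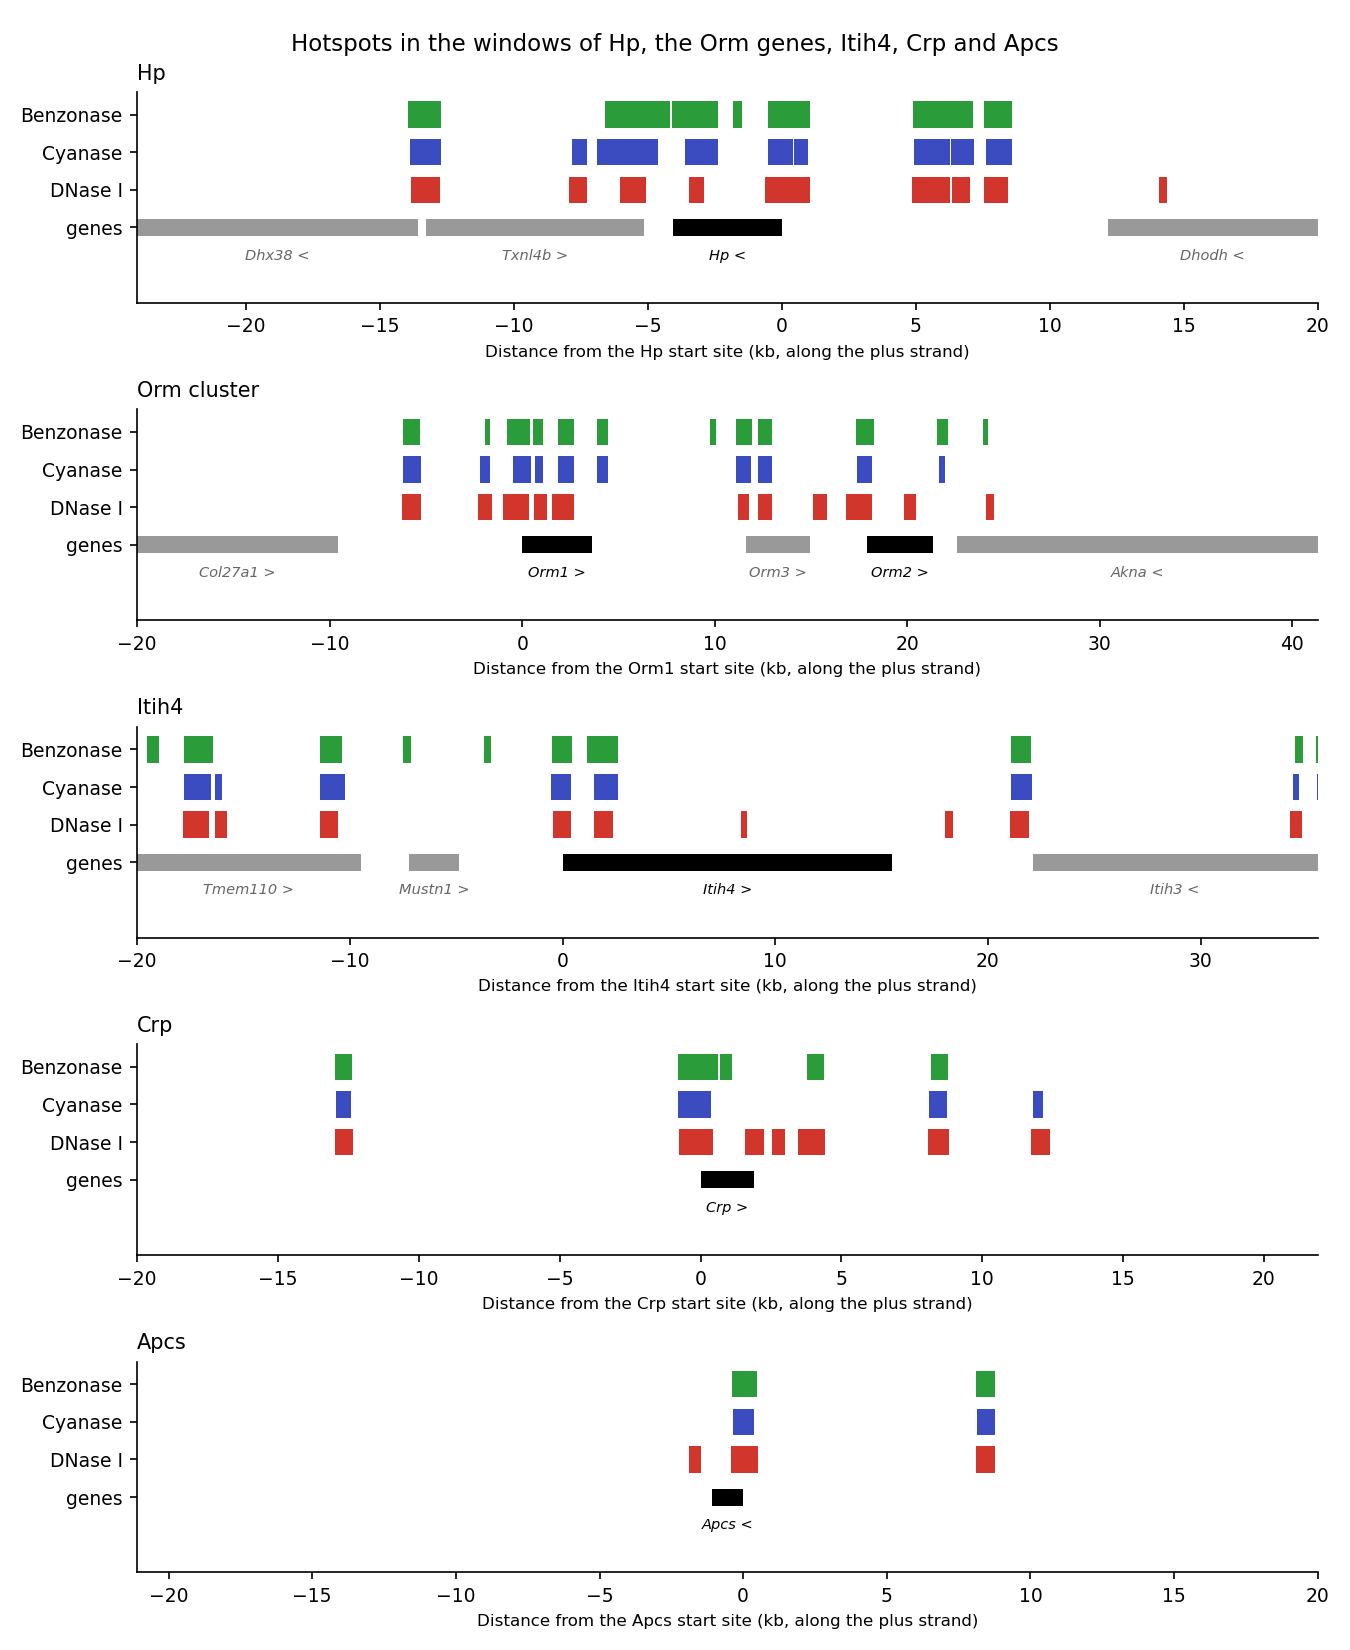
Hotspots of each nuclease (coloured bars) and gene bodies (black, acute phase genes; grey, neighbours; > and < give the strand) in the windows of Hp, the Orm genes, Itih4, Crp and Apcs, against distance in kb from the named start site. Hp and the Orm genes are flanked by many hotspots, and the Apcs window has 3 regions.

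All 10 genes had more of their window covered than the median gene. The median cover of the 10 was 14.3% with Benzonase, 13.8% with Cyanase and 12.5% with DNase I, compared with 3.22%, 2.90% and 2.98% over all genes. The spread among the 10 was wide, from 3.76% at Apcs to 24% at Hp with Benzonase. The genes were not independent in this, because windows in the Saa and Orm clusters share hotspots. Benzonase covered more than DNase I at Saa1, Saa3, Saa4, Hp and Itih4, and DNase I more than Benzonase at Saa2, Crp, Apcs, Orm1 and Orm2, so that neither direction held for all 10.

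**Figure D4:**
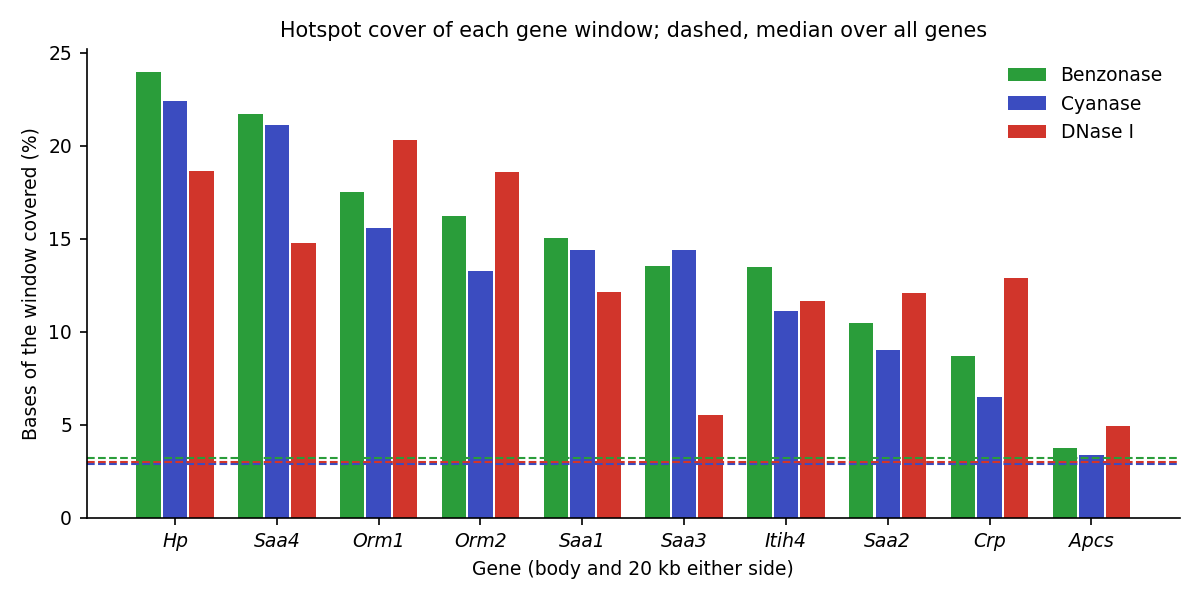
Percent of the bases of each gene's window (gene body and 20 kb either side) covered by hotspots of each nuclease (bars), with the median over 22365 genes as dashed lines. Hp has the tallest Benzonase bar at 24%, and the Apcs bars are close to the lines.

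The second question was how often the nucleases found the same region around these genes. Of the 62 regions, 34 (54.8%, interval 42.5 to 66.6%) had hotspots of all 3 nucleases, against 40.0% of all regions in the genome. Regions of Benzonase or Cyanase without DNase I numbered 12 (19.4%, interval 11.4 to 30.9%), against 26.3%. Of these 12, 6 had both enzymes, 6 had Benzonase alone and 0 had Cyanase alone. Regions of DNase I alone numbered 10 (16.1%, interval 9.0 to 27.2%), against 28.3%, and 6 regions (9.68%, interval 4.51 to 19.5%) had DNase I and 1 other nuclease, against 5.48%. The 34 include the region at Itih3. Neighbouring regions are not independent, so the intervals are too narrow, and start sites were part of every window.

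By place, all 8 regions at acute phase start sites had all 3 nucleases, against 78.1% of regions at gene start sites in the genome. Of 5 regions at start sites of neighbouring genes, 3 had all 3 and 2 had no DNase I. Of 10 further regions within the acute phase gene bodies, 4 had all 3, 3 had no DNase I and 3 had DNase I alone, and of 11 in bodies of neighbouring genes, 5 had all 3, beside 36.1% of regions in gene bodies in the genome. Between genes lay 28 regions, of which 14 had all 3, 6 had no DNase I and 5 had DNase I alone, beside 31.1% of all regions between genes with all 3.

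Where all 3 nucleases had hotspots, the median widths were close while single regions differed. Over the 34 regions the median was 911.5 bp with Benzonase, 901 bp with Cyanase and 877 bp with DNase I, compared with 799, 756 and 770 bp over all regions of all 3. The widest hotspot was that of Benzonase in 13 regions, of Cyanase in 7 and of DNase I in 14. The corresponding shares, 38.2%, 20.6% and 41.2%, stood beside 42.1%, 16% and 42.0% over all such regions. The narrowest was that of Benzonase in 3, of Cyanase in 15 and of DNase I in 16, beside 7054, 14100 and 16612 of all 37766 such regions. The outer edges of the 3 lists spread over a median of 93 bp across 68 edges, with 36 edges (52.9%) within 100 bp, against 100 bp and 50.4% over all regions. The farthest edges spread over 1419 bp, and DNase I was the narrowest by far in the region 3′ of Hp and in that upstream of Saa3.

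GC content differed between the classes in the same order as in the genome. The median was 49.0% in the 34 regions of all 3 nucleases, 52.8% in the 12 without DNase I and 44.8% in the 10 of DNase I alone, compared with 49.4%, 54.3% and 42.3% in all regions of these classes. The DNase I regions were spread from 36.2% to 53.8%, and those without DNase I from 45.7% to 59.5%, so the classes overlapped. Merged regions of all 3 had a median width of 1009.5 bp, those without DNase I 522 bp and those of DNase I alone 434 bp. Over all regions of these classes in the genome the medians were 918, 453 and 549 bp. A merged region spans all its hotspots, so merging hotspots of more nucleases can only widen it.

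**Figure D5:**
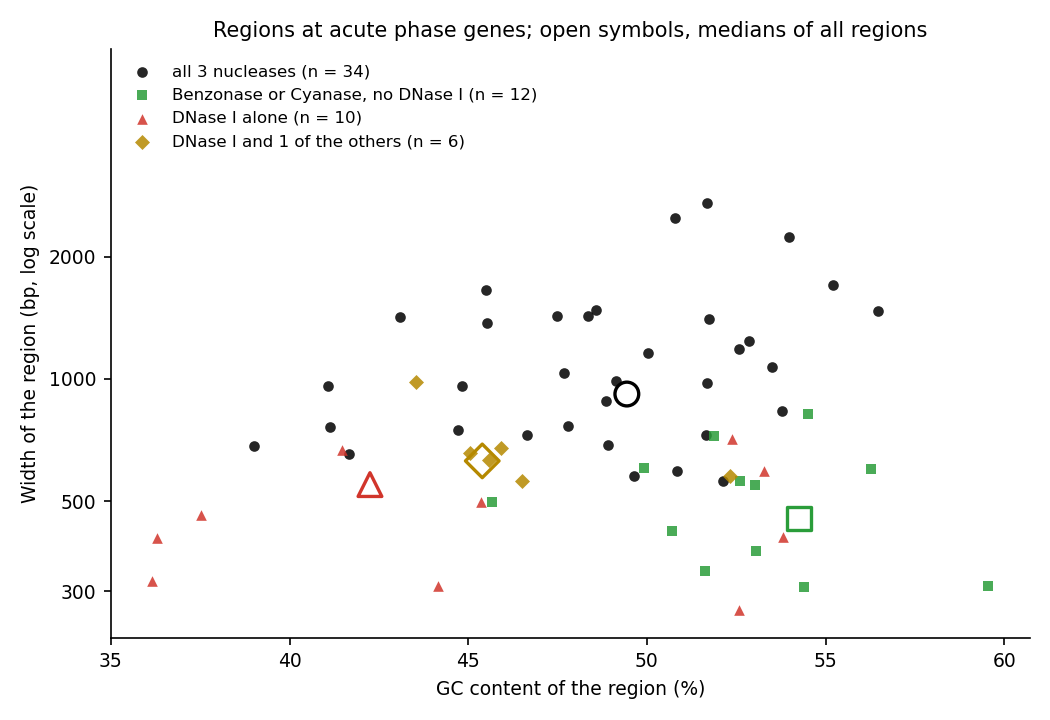
GC content (percent) against width (bp, log scale) of the 62 regions at acute phase genes, with a filled symbol per region by class and an open symbol at the median of all regions of that class in the genome. Regions of all 3 nucleases include the widest, and those of DNase I alone reach the lowest GC content.

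Motifs were counted as letters in the 300 bases before a start site or the central 300 bases of a region, on both strands. The C/EBP letters TTGCNNAA were in 6 of 10 promoters (Saa1, Saa2, Saa3, Saa4, Orm1 and Orm2), against 11.1% of all promoters. They were in 20 of 62 regions (32.3%), against 17.2% of all regions. The match read TTGCACAA at Saa1 (-182 to -175 bp) and Saa2 (-183 to -176 bp), and TTGCGCAA, which is its own reverse complement, at Orm1 (-121 to -114 bp) and Orm2 (-120 to -113 bp). The copies share ancestry, so these are not 6 independent matches, and the motif stood both in Saa1, with hotspots, and in Saa2 and Saa3, without.

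The other motifs were rarer. The STAT letters TTCNNNGAA were in 2 promoters, at Itih4 (TTCCGAGAA, -51 to -43 bp) and Apcs (TTCTAGGAA, -244 to -236 bp), against 8.19% of all promoters, and in 5 regions (8.06%) against 9.18%. The TATA box letters TATAAA were in 3 promoters, at Crp (-31 to -26 bp), Orm2 (-33 to -28 bp) and Saa3 (-261 to -256 bp), against 14.5% of promoters. The NF-kB letters GGGNNTTCC were in 0 promoters (6.08% of all) and 2 regions (3.23%), against 4.18% of all regions. These letters fix the spacing between GGG and TTCC, so sites with other spacing were not searched. The count of 0 therefore does not show that the promoters lack NF-kB sites. The HNF4 letters CAAAGTCCA were in 0 promoters and 4 regions (6.45%), against 1.55% of all regions, and the FOXA letters TGTTTAC were in 4 regions (6.45%), against 6.60%. A match of letters does not show that a factor was bound.

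Other genes of the response were scored by the same rule. Of 18 further acute phase genes, among them Fga, Fgb, Fgg, Hpx, Lcn2 and Serpina3n, 16 had a start site in hotspots of all 3 nucleases, beside 46.1% of all genes. The exceptions were Cd14, a lipopolysaccharide co-receptor, with the nearest hotspots 7873, 7872 and 7914 bp away with Benzonase, Cyanase and DNase I, and Vnn1, a pantetheinase, with a DNase I hotspot at the start site, a Benzonase hotspot 29 bp away and a Cyanase hotspot 1218 bp away. All 6 negative acute phase genes, whose plasma proteins fall in inflammation, had hotspots of all 3. Among receptors and signalling genes the count was 11 of 12, and Il6st, the shared signalling chain of interleukin 6 receptors, had its nearest hotspots at 8011, 10203 and 3571 bp. The transcription factor genes Cebpa, Cebpb, Hnf4a, Foxa2 and Nr3c1 each had a start site in hotspots of all 3.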

How the data were processed

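Chromatin accessibility was measured by nuclease digestion of liver tissue (Benzonase and Cyanase) or nuclei (DNase I), followed by sequencing. Per the study's methods, the authors used Eland or Bowtie to place tags on mm9, combined libraries made with one nuclease, and then kept enriched stretches (hotspots) that passed a false discovery rate of 0% and a density cutoff set at the mode. Their deposited track lines read input adjusted and unmerged. The deposited lists hold 60910 Benzonase, 57675 Cyanase and 72286 DNase I hotspots, each more than the study counts for that nuclease. Shares of regions given here are therefore not those of the study. The lists hold positions only (chromosome and both bounds), without count, score or density, so depth is unknown and no result could be tested across samples. There were 0 columns of other samples.

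Genes came from GENCODE release M1 on NCBIM37 (mm9), and positions count from 1. A gene was scored as present when at least 1 start site of a protein-coding transcript lay inside a hotspot. Cebpd has no such transcript there and was not scored, and some listed items are not reported here. Distances are from the first base of the gene body. Hotspots sharing 1 bp were merged, which gave 94491 regions, as did bedtools 2.31.1. Words of 32 bases and fixed motifs were counted on both strands. Promoters were aligned end to end with Biopython 1.88 (match 1, mismatch -1, gap opening -2, extension -0.5). Python 3.11.15, numpy 2.4.6, numba 0.67.0 and matplotlib 3.10.9 were used. Merging, word counts and motif search were tested on simulated data and recovered all planted items.

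The 10 genes were all named. Neighbours with a start site inside a hotspot were also named, as were listed acute phase, receptor and signalling genes missing from at least 1 nuclease. Markers of cell types and of other tissues were given by counts, apart from the hepatocyte markers and Kdr. The genes, lists and motifs were chosen with earlier results of these data known. Alternatives were a reciprocal overlap of 50%, joining of hotspots within 150 bp, other window sizes, other rules for start sites, exclusion of narrow hotspots, GC content of the central 150 bp and words of 24 bases.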

Additional observations from a re-analysis of the deposited data

How the results depend on the processing

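Of 46 values under alternatives, 44 were counted as within set limits and 2 as moved. The limits left room for shifts. The share without DNase I, for one, was 27.9% with a reciprocal overlap of 50%, above 19.4%, beside 31.3% of all regions with that overlap. The 2 values counted as moved come next. With gene bodies alone in place of 20 kb windows, the share of regions with all 3 nucleases was 66.7% (12 of 18), above 54.8%. These 18 include the 8 start site regions, all of which had all 3 nucleases. Of the 10 further regions 4 did, beside 36.1% of regions in gene bodies in the genome. With 5 kb windows, the median DNase I cover was 17.9%, above 12.5%. Benzonase cover, counted as within the limits, was 18.1% against 14.3%, and Cyanase cover was 13.5% against 13.8%. The share with all 3 nucleases was 58.8% with 50 kb windows and 44.1% with a reciprocal overlap of 50%, against 32.5% of all regions with that overlap. The start site count was 8 of 10 for every nuclease and alternative, except for DNase I, with 9 when the 2 kb before a start site was taken (Saa3) and 7 without narrow hotspots (Saa1). Chosen after seeing the data, leaving out regions at start sites of other genes gave a share of 54.4%, and keeping regions with at least 90% of words found once gave 56.6%. No replicate could be left out, because tags were pooled before hotspots were called. No paired analysis was possible because the lists carry no replicate numbers. Depth per hotspot is unknown, so a missing hotspot does not show absent cutting.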

Other observations

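Other genes within the windows shared or lacked hotspots at their start sites. Orm3 and the divergent pair Dhx38 and Txnl4b, beyond the 3′ end of Hp, had hotspots of all 3 nucleases. Saal1, next to Saa3, had Benzonase (818 bp) and Cyanase (758 bp) hotspots and no DNase I hotspot. Mustn1, upstream of Itih4, had a Benzonase hotspot of 377 bp alone. A start site of Hps5 within the Saa window lay in no hotspot.

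The longest stretch without a hotspot measured 19704 bp in the Saa cluster, 19216 bp at Apcs, 16829 bp in the Orm cluster, 12118 bp at Itih4, 11533 bp at Crp and 10086 bp at Hp. In the stretch that holds Saa2, 90.7% of 32-base words occurred once in the genome, and at Apcs 58.5% did.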
